A study of Rattus norvegicus with 97 samples.

Results

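The genes described here are those of the cholinergic system of the rat nucleus accumbens shell, a ventral striatal region involved in reward. They are Chat, Slc5a7, Slc18a3, Ache and the muscarinic receptor genes Chrm1, Chrm2, Chrm3, Chrm4 and Chrm5, chosen by name. Of these 9 genes, 8 were measured, by 9 probe sets that carry the gene as their only symbol in the platform annotation, out of 14217 genes and 31042 probe sets. Chrm3 had 2 probe sets, called first (1387462_at) and second (1369112_at) here. Ache had no probe set under that symbol and was not analysed here.

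RNA came from 97 rats, 1 array each, of 5 pairs of lines bred for alcohol intake. The preferring lines were P, HAD1, HAD2, AA and sP, set against NP, LAD1, LAD2, ANA and sNP as non-preferring counterparts. Of LAD1, sP and sNP there were 9 rats, and of every other line 10. The labels give no treatment, alcohol exposure, sex or age, and no founder stock of any line. Line pairs that share founders would not be independent of each other, which was not tested. The values are log2 signals from RMA, the summary of the probes of a probe set after background correction and quantile normalisation, and array medians lay between 7.82 and 8.02. No 2 arrays held identical values. Spiny neuron markers of the striatum averaged 11.41 to 12.58 by line, and markers of cortical projection neurons 5.81 to 6.72. In 8 arrays, called departing arrays here, the genes that part the lines of a pair did not place the animal clearly in the line on its label. They were P 9, NP 9, HAD1 28, LAD1 37, AA 19, ANA 20, sP 4 and sNP 4. On a score of 0 at the non-preferring and 1 at the preferring median, P 9 (0.46), sP 4 (0.40) and sNP 4 (0.48) lay between. The others lay near the end of the opposite line. AA 19 had a mean correlation of 0.995 with sP arrays and 0.979 with other AA arrays. For ANA 20 it was 0.996 with sNP arrays and 0.986 with other ANA arrays. A higher value with the other line of the same pair also occurred elsewhere, as in P 1 (0.988 with NP, 0.985 with P). Only in AA 19 and ANA 20 was the value with a line of another pair above that with their own line. All results include the departing arrays. Without them limma's test between the lines called, at an adjusted p under 0.05, 661 of all probe sets in P/NP (326 with them), 1378 in AA/ANA (728 with them) and 4657, or 15%, in sP/sNP (4006 with them), and the count of called probe sets of these genes stayed at 0, 0 and 1 in those pairs. HAD1/LAD1, where that count differed, is given both ways.

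Acetylcholine in the striatum comes mainly from large interneurons that are few in number and branch widely. Choline acetyltransferase (Chat) makes the transmitter, the high-affinity choline transporter (Slc5a7) returns choline to the terminal, and the vesicular acetylcholine transporter (Slc18a3) loads it into vesicles. Acetylcholinesterase (Ache) breaks it down after release. Of the receptors, M1, M3 and M5 (Chrm1, Chrm3, Chrm5) act through Gq and phospholipase C, whereas M2 and M4 (Chrm2, Chrm4) act through Gi and lower cyclic AMP. Chrm4 and Chrm1 are prominent in the spiny projection neurons, and M2 and M4 also serve as autoreceptors that limit acetylcholine release.

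The windows around the starts of 5 of these genes are shown because the results below concern genes that moved together between animals (Chat, Slc5a7 and Slc18a3; Chrm1 and Chrm4). Each runs 5′ to 3′ on the strand of the gene, from 250 bases before to 50 bases after the start, and comes from RefSeq in build GRCr8. Of the 9 genes, 8 had such an entry. Capitals mark matches, on either strand, to 4 motifs. These are the TATA box TATAAA (in 14.2% of 33469 rat promoter windows of the same length), the core TGACG of the cyclic AMP response element (21.2%), the GC box GGGCGG (33.1%) and the left part of the RE1 element, CAGCACC (6.78%).
Chat (chr16:7723367-7723666, minus strand): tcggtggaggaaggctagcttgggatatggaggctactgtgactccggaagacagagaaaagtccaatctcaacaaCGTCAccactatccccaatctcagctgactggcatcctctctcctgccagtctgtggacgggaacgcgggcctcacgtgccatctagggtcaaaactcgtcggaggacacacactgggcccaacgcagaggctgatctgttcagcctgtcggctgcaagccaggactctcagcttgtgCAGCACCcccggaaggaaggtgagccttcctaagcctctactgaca
Slc18a3 (chr16:7722765-7723064, minus strand): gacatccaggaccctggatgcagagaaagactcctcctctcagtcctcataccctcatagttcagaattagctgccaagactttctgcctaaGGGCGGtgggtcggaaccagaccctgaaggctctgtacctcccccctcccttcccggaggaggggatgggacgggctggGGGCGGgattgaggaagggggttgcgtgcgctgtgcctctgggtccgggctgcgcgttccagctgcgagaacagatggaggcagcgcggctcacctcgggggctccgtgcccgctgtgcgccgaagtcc
Slc5a7 (chr9:7953460-7953759, minus strand): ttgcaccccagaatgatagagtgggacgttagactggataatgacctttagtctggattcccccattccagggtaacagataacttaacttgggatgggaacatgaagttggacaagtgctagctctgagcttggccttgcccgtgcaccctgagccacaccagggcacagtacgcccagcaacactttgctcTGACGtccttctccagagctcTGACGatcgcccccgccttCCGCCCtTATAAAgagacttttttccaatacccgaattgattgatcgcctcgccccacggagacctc
Chrm1 (chr1:214996109-214996408, plus strand): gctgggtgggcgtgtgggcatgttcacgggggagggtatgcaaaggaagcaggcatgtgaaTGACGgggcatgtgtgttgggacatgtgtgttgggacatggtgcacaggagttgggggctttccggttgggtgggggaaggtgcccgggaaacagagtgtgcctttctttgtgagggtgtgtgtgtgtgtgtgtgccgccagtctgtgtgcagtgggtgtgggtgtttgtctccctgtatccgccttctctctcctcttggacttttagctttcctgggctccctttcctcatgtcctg
Chrm4 (chr3:98348830-98349129, plus strand): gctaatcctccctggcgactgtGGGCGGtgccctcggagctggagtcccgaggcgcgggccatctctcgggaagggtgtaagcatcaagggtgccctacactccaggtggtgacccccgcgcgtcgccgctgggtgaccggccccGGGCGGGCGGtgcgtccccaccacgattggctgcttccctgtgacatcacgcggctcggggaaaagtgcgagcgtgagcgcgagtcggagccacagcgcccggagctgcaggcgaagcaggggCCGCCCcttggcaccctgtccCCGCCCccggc
Slc18a3 lies inside the span of Chat on the same strand, and 302 bases separate these windows. The Chat window held 1 TGACG core, read as CGTCA, and 1 CAGCACC. In the Slc5a7 window there were 2 TGACG cores, 1 GC box read as CCGCCC and 1 TATA box, and in the Slc18a3 window 2 GC boxes. Chrm1 had 1 TGACG core, and Chrm4 had 5 GC boxes, of which 2 overlap. These matches describe the letters of the windows and show no binding.

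**Figure D1:**
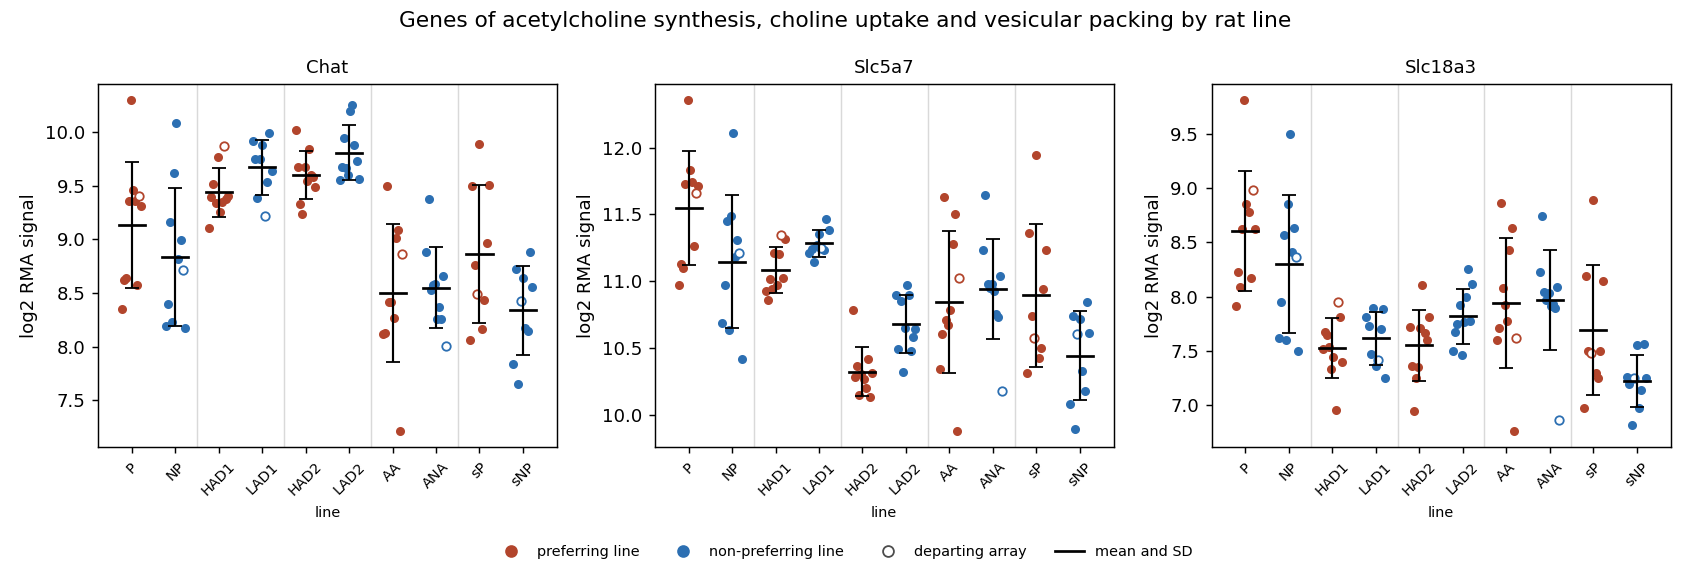
Log2 RMA signal (y axis) of Chat, Slc5a7 and Slc18a3 in each animal of the 10 lines (x axis). Points are animals, open points are departing arrays, and black bars give the mean and SD of the line. Animals of P, NP, AA, ANA, sP and sNP spread widely, whereas those of HAD1, LAD1, HAD2 and LAD2 lie close together for Chat and Slc5a7.

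The genes of acetylcholine synthesis, choline uptake and vesicle loading were compared in all 5 pairs, and 1 of the 3 passed the test in 1 pair. Slc5a7, the choline transporter, was lower in HAD2 than in LAD2. Its log2 signal ran from 10.13 over a median of 10.30 to 10.78 in HAD2 rats, against 10.32, 10.65 and 10.97 in LAD2 rats. A single HAD2 animal, number 1, stood at 10.78 and all other HAD2 rats lay at or below 10.42, so that the lines overlapped. The means were 10.32 ± 0.19 in HAD2 and 10.68 ± 0.22 in LAD2 (SD, n = 10 each), a difference of -0.36 ± 0.086 (SE), or 0.781 times the LAD2 signal, with a 95% interval from -0.54 to -0.18. In limma, two-sided and adjusted over all probe sets, the adjusted p was 0.0143. Of all probe sets 4.6% were called in this pair and 2.48% were called lower, and of the 9 probe sets of these genes 1 was called. Leaving out any 1 animal kept the adjusted p between 0.00179 and 0.0308. With a spread shared over all 10 lines, however, the adjusted p was 0.299 for the same difference.

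Chat and Slc18a3 were not called in HAD2 against LAD2. Chat averaged 9.60 ± 0.23 in HAD2 and 9.81 ± 0.26 in LAD2, a difference of -0.21 ± 0.10 (limma adjusted p 0.374). Slc18a3 averaged 7.55 ± 0.33 in HAD2 and 7.82 ± 0.25 in LAD2, a difference of -0.27 ± 0.12 (limma adjusted p 0.309). All 3 genes thus had a negative difference in this pair, of which that of Slc5a7 alone passed the test. In tissue RNA, fewer cholinergic neurons and less RNA per neuron cannot be told apart.

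Genes of choline handling and of other cell types also differed between HAD2 and LAD2. Among 19 measured genes of acetylcholine and choline handling, 2 fell and none rose, beside 2.48% of all probe sets called lower. Colq, a collagen tail subunit of acetylcholinesterase, averaged 7.37 ± 0.20 in HAD2 and 7.96 ± 0.24 in LAD2 (-0.59 ± 0.094, limma adjusted p 0.000268). Slc44a1, a choline transporter-like protein, averaged 10.71 ± 0.14 in HAD2 and 11.18 ± 0.29 in LAD2 (-0.47 ± 0.097, limma adjusted p 0.00391). The median difference of the 19 genes was -0.07, against -0.00 over all probe sets. Of 34 measured signalling partners of muscarinic receptors 1 rose, the potassium channel subunit Kcnq5, at 12.55 in HAD2 and 12.10 in LAD2 (0.45 ± 0.093, limma adjusted p 0.00418). None of 11 measured genes of cholinergic neuron identity was called.

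Marker lists moved in the same pair. Of 6 oligodendrocyte markers 5 were called lower in HAD2 and none higher, and their mean level ran from 10.95 to 11.34 in HAD2 and from 11.16 to 11.96 in LAD2. Of 5 endothelial markers 3 were called lower, with mean levels from 9.62 to 9.89 in HAD2 and from 9.70 to 10.07 in LAD2. No spiny neuron marker out of 11 was called. Ngfr, the neurotrophin receptor carried by cholinergic neurons of the basal forebrain and hardly by striatal interneurons, averaged 6.40 ± 0.36 in HAD2 and 6.94 ± 0.62 in LAD2 (-0.54, exact permutation p 0.0255, 0.17 after adjustment over 20 tests of markers and RNA measures). With the oligodendrocyte mean as a covariate the difference of Slc5a7 was -0.32 (limma adjusted p 0.151), and with Ngfr as a covariate it was -0.30 (limma adjusted p 0.116). Both covariates were chosen after the data were seen.

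In HAD1 against LAD1 none of the 9 probe sets was called, beside 1.2% of all probe sets. Slc5a7 averaged 11.08 ± 0.17 in HAD1 and 11.28 ± 0.099 in LAD1, a difference of -0.20 ± 0.065 (limma adjusted p 0.178). Chat averaged 9.44 ± 0.23 in HAD1 and 9.67 ± 0.26 in LAD1, a difference of -0.24 ± 0.10 (limma adjusted p 0.438). For Chat the highest HAD1 animal and the lowest LAD1 animal were the departing arrays, HAD1 28 at 9.87 and LAD1 37 at 9.22. Without these arrays 2 of the 9 were called, both lower in HAD1, beside 3.98% of all probe sets. The differences were then -0.34 for Chat (limma adjusted p 0.0331) and -0.24 for Slc5a7 (limma adjusted p 0.0483). Departing arrays were identified by line differences, so the higher count without them is not independent evidence. The cortical projection neuron marker mean ran from 5.88 to 7.60 in HAD1, with 5 of 10 rats above 7, and from 5.97 to 7.56 in LAD1, with 3 of 9 above 7. With that mean as a covariate, chosen after the data were seen, and without the departing arrays, the differences were -0.29 for Chat (limma adjusted p 0.107) and -0.22 for Slc5a7 (limma adjusted p 0.123), and none of the 9 was called. Slc18a3 averaged 7.53 ± 0.28 in HAD1 and 7.62 ± 0.24 in LAD1. No gene of the 3 pathway lists was called in this pair.

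In P against NP, and in sP against sNP, the 3 genes had positive differences that did not pass the test. P and NP had 1.05% of probe sets called and none of the 9. Slc5a7 ran from 10.97 over a median of 11.69 to 12.35 in P rats, against 10.41, 11.20 and 12.11 in NP rats. The difference was 0.40 ± 0.19 (limma adjusted p 0.667). Chat averaged 9.14 ± 0.59 in P and 8.84 ± 0.64 in NP (0.30 ± 0.26), and Slc18a3 averaged 8.61 ± 0.55 in P and 8.30 ± 0.64 in NP (0.31 ± 0.25). The spread within these lines was above 0.4 on the log2 scale for each gene, and no gene of the pathway lists was called in this pair.

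In sP rats, Chat ran from 8.06 over a median of 8.76 to 9.89, against 7.65, 8.43 and 8.89 in sNP rats. Its means were 8.86 ± 0.65 in sP and 8.34 ± 0.41 in sNP (SD, n = 9 each), a difference of 0.53 ± 0.23 (limma adjusted p 0.134). The difference was 0.45 ± 0.19 for Slc5a7 (limma adjusted p 0.119) and 0.47 ± 0.20 for Slc18a3 (limma adjusted p 0.113). Only 3 sP animals reached above the highest sNP value of Slc5a7 by more than 0.3, and the lowest sP animals lay inside the sNP range for all 3 genes. With the difference of the spiny neuron and neighbouring region marker means as a covariate, described with Chrm1 below, the signs turned, to -0.13 for Chat, -0.06 for Slc5a7 and -0.03 for Slc18a3.

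For these 3 genes AA and ANA gave the smallest differences. In this pair 2.35% of probe sets were called and none of the 9, whose differences ranged from -0.10 to 0.07. Chat averaged 8.50 ± 0.64 in AA and 8.55 ± 0.38 in ANA, Slc5a7 10.84 ± 0.53 in AA and 10.94 ± 0.37 in ANA, and Slc18a3 7.94 ± 0.60 in AA and 7.97 ± 0.46 in ANA. Animal AA 17 stood apart. It had the lowest Chat (7.22), Slc5a7 (9.88) and Slc18a3 (6.77) of the AA rats and the highest Chrm3 (9.57 and 6.76 by the first and second probe set), and its cortical projection neuron marker mean was 8.76, against 5.72 to 6.32 in the other AA rats. Its part in these values was not tested. Without it the differences were 0.10 for Chat, 0.01 for Slc5a7, 0.10 for Slc18a3 and -0.19 and -0.05 for Chrm3, and none of the 9 was called. The 95% interval of the Slc5a7 difference over all animals ran from -0.49 to 0.30. Of the pathway lists, 1 signalling gene rose, Gnb1, a G-protein beta subunit, at 12.54 in AA and 11.98 in ANA (0.56 ± 0.081, limma adjusted p 0.00022).

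**Figure D2:**
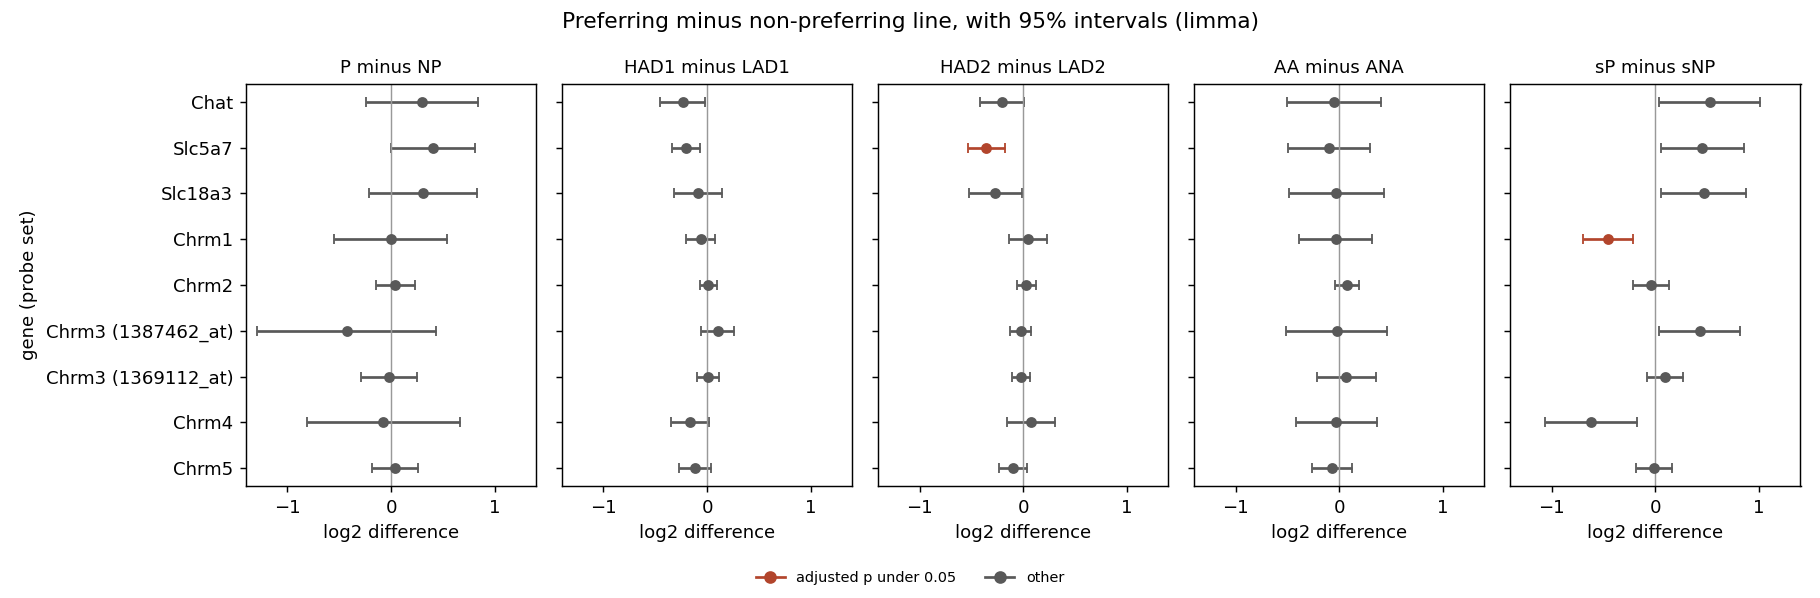
Preferring minus non-preferring line (x axis, log2) for each probe set (y axis) in the 5 line pairs, with 95% intervals from limma. Red marks an adjusted p under 0.05, reached by Slc5a7 in HAD2 against LAD2 and by Chrm1 in sP against sNP, both lower in the preferring line.

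The differences of Slc5a7 ran from -0.36 in HAD2/LAD2 to 0.45 in sP/sNP, positive in 2 pairs and negative in 3. The F test of equality in the fit with 1 mean per line gave F = 4.88 and a limma adjusted p of 0.0161, beside 11.7% of all probe sets called in this test. The test takes 1 spread for all lines, whereas the SD of Slc5a7 ran from 0.099 in LAD1 to 0.53 in sP, which limits this p. Without HAD2 and LAD2 the adjusted p was 0.166, and without sP and sNP it was 0.0688. Slc5a7 was the 1 probe set of the 9 called, a share near that of all probe sets. The same sign pattern over the pairs was seen in Chat and Slc18a3, with adjusted p of 0.201 and 0.262 in the same limma test.

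Averaged over the 5 pairs, no gene of the system was called between preferring and non-preferring lines. The average ran from -0.16 ± 0.10 for Chrm4 to 0.08 ± 0.09 for Slc18a3, with limma adjusted p from 0.503 to 0.984 when animals were the replicates, beside 3.37% of all probe sets called. When the 5 line pairs were the replicates, limma called 0% of all probe sets (1214 had an unadjusted p under 0.05, of which 0 belonged to these genes), and the adjusted p of the 9 lay between 0.948 and 0.995.

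**Figure D3:**
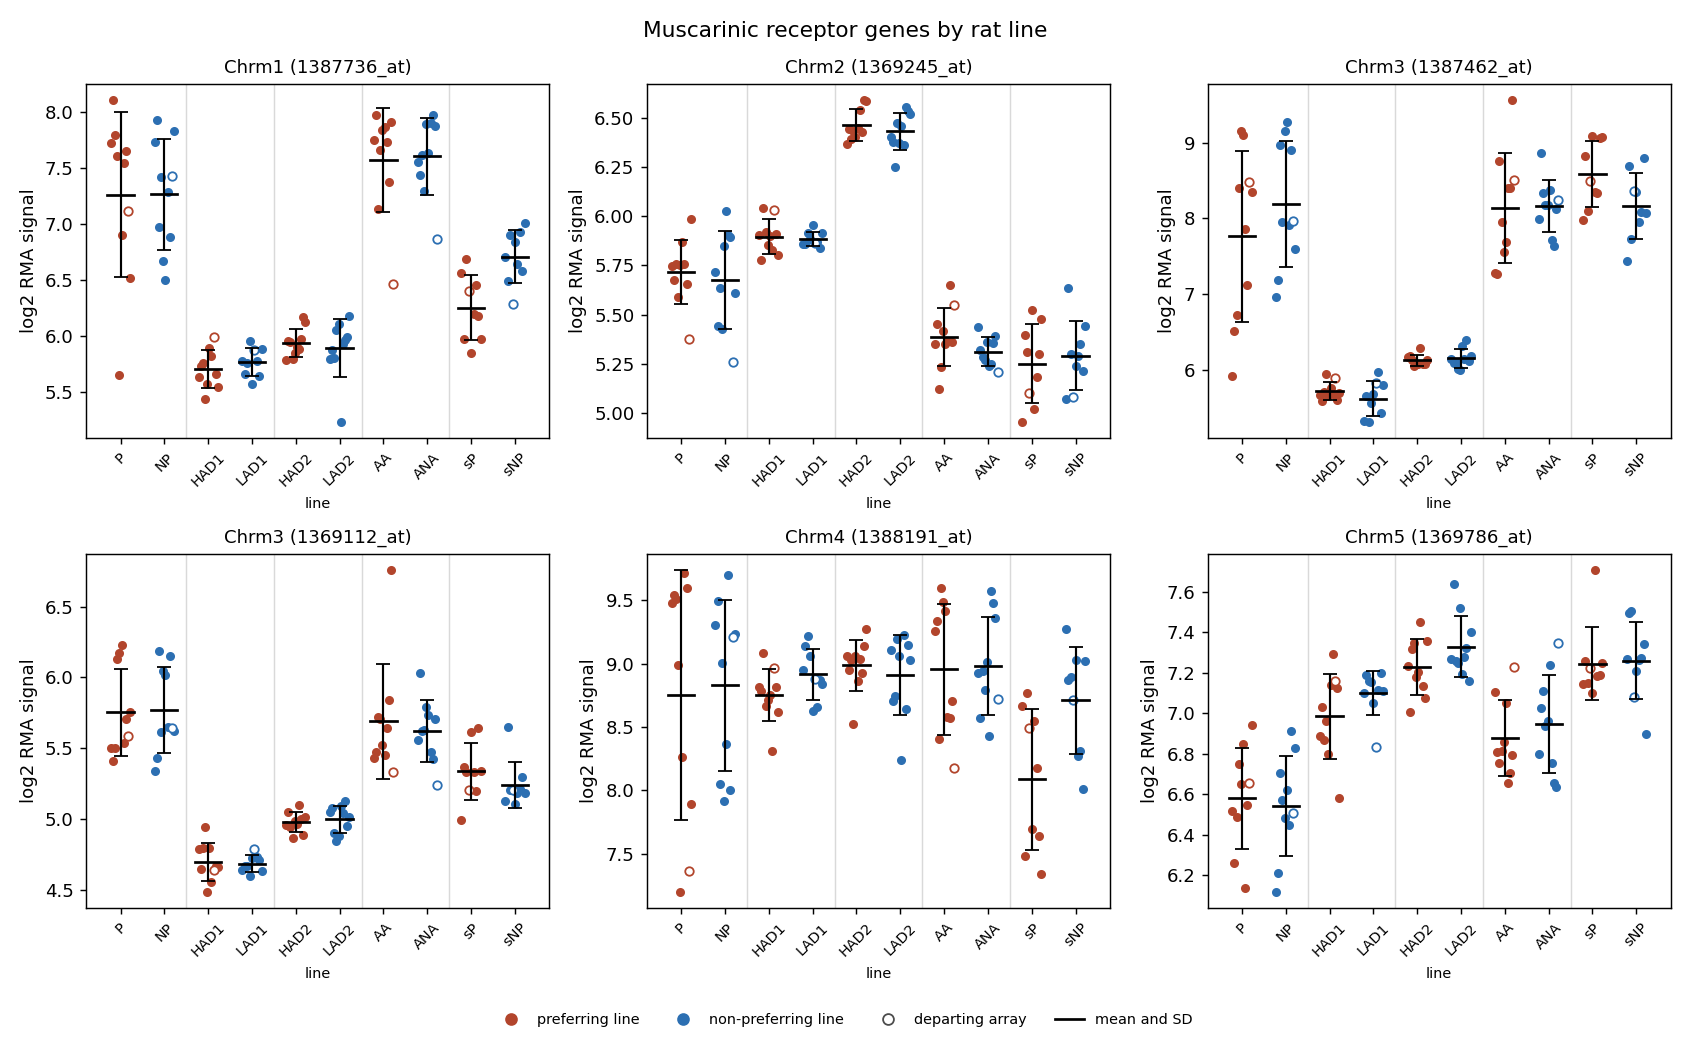
Log2 RMA signal (y axis) of the 6 muscarinic receptor probe sets in each animal of the 10 lines (x axis). Points are animals, open points are departing arrays, and black bars give the mean and SD of the line. Chrm1 lies lower in sP than in sNP, and Chrm3 (first probe set) has lower means in all 4 HAD and LAD lines than in any other line.

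Among the receptors, Chrm1 was lower in sP than in sNP. Its log2 signal ran from 5.84 over a median of 6.19 to 6.69 in sP rats, against 6.29, 6.70 and 7.004 in sNP rats. The sP animals filled the lower part of the common range, and the lines overlapped between 6.29 and 6.69. Means were 6.25 ± 0.29 in sP and 6.71 ± 0.23 in sNP (SD, n = 9 each), a difference of -0.45 ± 0.12 (SE), or 0.73 times the sNP signal, with a 95% interval from -0.70 to -0.21 and a limma adjusted p of 0.0247. Calls covered 12.9% of all probe sets here (7.08% higher, 5.83% lower), and took in 1 of the 9, which was lower, a share no higher than that of all probe sets. The adjusted p passed 0.05 when sP 2, sP 5, sP 9, sNP 3 or sNP 9 was left out, and reached 0.0555. It was 0.0771 with a spread shared over all lines.

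Chrm4, the main Gi-coupled receptor of spiny neurons, ran from 7.34 over a median of 8.17 to 8.77 in sP rats, against 8.01, 8.87 and 9.28 in sNP rats. Of the 9 sP animals 4 lay below all sNP animals, and the others overlapped with sNP. The difference was -0.62 ± 0.21 (8.09 ± 0.56 in sP, 8.71 ± 0.42 in sNP), with a limma adjusted p of 0.0576. Chrm3 (first probe set) averaged 8.59 ± 0.43 in sP and 8.16 ± 0.44 in sNP (0.43 ± 0.19, limma adjusted p 0.131), and its other probe set 5.34 ± 0.20 in sP and 5.24 ± 0.16 in sNP. Chrm2 and Chrm5 differed by -0.04 and -0.01.

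Tissue markers differed in the same pair. The mean of the spiny neuron markers was 11.41 in sP, from 10.24 to 12.41, and 12.37 in sNP, from 11.75 to 12.67, a difference of -0.96 (exact permutation p 0.00868, 0.139 after adjustment over 20 tests). Of 11 such markers 10 were called lower in limma and none higher. The mean of markers of the neighbouring ventral pallidum, septum and basal forebrain was 8.99 in sP, from 8.56 to 9.37, and 8.47 in sNP, from 7.79 to 9.03 (exact permutation p 0.0139, 0.139 after adjustment), and 4 of 9 were called higher. Ngfr ran from 4.98 to 9.15 in sP and from 5.05 to 6.78 in sNP (1.08, exact permutation p 0.0708, 0.354 after adjustment). With the difference of the spiny and neighbouring means as a covariate, Chrm1 differed by -0.14 (limma adjusted p 0.957), and the signs of Chrm3 (-0.11 by its first probe set) and Chrm4 (0.05) turned. How much of the line difference in Chrm1 goes with the composition of the tissue piece was not tested beyond this covariate.

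Signalling partners of the receptors moved in both directions in sP against sNP. Of 34 measured, 4 rose and 8 fell, with a median difference of -0.04 against -0.00 over all probe sets. Of all probe sets 7.08% were called higher and 5.83% lower. The smallest adjusted p among them was that of Grk6, a kinase that phosphorylates activated receptors, at 11.82 in sP and 11.56 in sNP (0.26 ± 0.067, limma adjusted p 0.0255). Next was the calcium channel subunit Cacna1d, at 8.31 in sP and 8.89 in sNP (-0.59 ± 0.15, limma adjusted p 0.0259). Gng3, a G-protein gamma subunit, averaged 12.44 in sP and 12.14 in sNP. Kcnq5 averaged 11.59 in sP and 12.34 in sNP, and the cyclase of spiny neurons, Adcy5, averaged 9.89 in sP and 10.74 in sNP. Arrb2, an arrestin, averaged 9.30 in sP and 9.01 in sNP. The remaining 6 called genes were Plcb4, which rose, and Rgs9, Itpr1, Prkcb, Rgs2 and Plcb1, which fell. Rgs9 is also on the list of spiny neuron markers. How far the differences of these partners go with the tissue markers was not tested.

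Of 11 measured genes of cholinergic neuron identity and trophic support 5 rose in sP and none fell, with a median difference of 0.41. Over all probe sets 7.08% were called higher. Ngfr, a tissue marker above, is also on this list, and how far these rises go with the tissue markers was not tested. Zic4, a zinc finger factor of the septum and basal forebrain, averaged 8.89 in sP and 7.97 in sNP (0.92 ± 0.22, limma adjusted p 0.0168). Gbx2, a homeobox factor in precursors of striatal cholinergic interneurons, averaged 8.69 in sP and 7.83 in sNP (0.85 ± 0.26, limma adjusted p 0.0382). Slc10a4, a vesicular protein of cholinergic and monoaminergic neurons, averaged 10.18 ± 0.50 in sP and 9.55 ± 0.44 in sNP (0.63 ± 0.20, limma adjusted p 0.0473). Tacr1, the substance P receptor of cholinergic interneurons, averaged 8.94 in sP and 8.58 in sNP, and Bdnf averaged 6.36 in sP and 5.86 in sNP. Of the 19 handling genes 2 rose, Slc44a1 (0.30 ± 0.097) and Pcyt1a, an enzyme that uses choline for membrane lipid (0.23 ± 0.069), and none fell. Slc44a1 thus had opposite calls in sP/sNP and in HAD2/LAD2, and this contrast between pairs was not tested separately.

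In the other pairs the receptor genes had small or uncertain differences. Chrm3 (first probe set) averaged 7.76 ± 1.13 in P and 8.19 ± 0.83 in NP, a difference of -0.43 ± 0.42 with a 95% interval from -1.29 to 0.44. Its values spread from 5.92 to 9.15 in P and from 6.97 to 9.28 in NP. Chrm4 averaged 8.76 ± 0.99 in P and 8.83 ± 0.68 in NP. In HAD1 against LAD1 the receptor differences ran from -0.16 for Chrm4 to 0.10 for Chrm3 (first probe set), and in HAD2 against LAD2 from -0.10 for Chrm5 to 0.08 for Chrm4. Chrm5, the M5 receptor best known from dopamine neurons, had its largest difference, -0.12 ± 0.075, in HAD1 against LAD1. Chrm2 differed by at most 0.07 in any pair.

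Levels were also compared across all 10 lines. In the test of equality of the 10 line means all 9 probe sets were called, as were 99.1% of all probe sets, so these calls are no result about the genes. Line pair and any unrecorded difference in the handling of the arrays cannot be told apart. The gap between the 3′ and 5′ control probe sets for Gapdh, which widens with degraded RNA or shorter labelled copies, ran from 2.3 to 5.38 in the animals of HAD1, LAD1, HAD2 and LAD2 and from -0.06 to 0.80 in those of the other 6 lines. The departing arrays AA 19 (0.54) and ANA 20 (0.40) lay within the range of sP and sNP, 0.31 to 0.80. The other AA and ANA rats ran from -0.06 to 0.21. The part of this gap in the levels was not tested.

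Chat was highest in LAD2 (9.81), followed by LAD1 (9.67), HAD2 (9.60) and HAD1 (9.44), and lowest in sNP (8.34). No step between neighbours in that order exceeded the SD within lines, 0.46. Slc5a7 had another order, with P highest (11.55) and HAD2 lowest (10.32), and Slc18a3 ran from P (8.61) to sNP (7.23). For neither did neighbours differ by more than the SD within lines. The mean of the 4 HAD and LAD lines minus that of the other 6, a contrast chosen after the data were seen, was 0.93 for Chat, -0.13 for Slc5a7 and -0.33 for Slc18a3. The median size of this contrast over all probe sets was 0.43, and 15.6% of probe sets were past 1.

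Chrm3 (first probe set) had the largest such contrast among the 9, -2.27, larger in size than that of 98.7% of probe sets. It was highest in sP (8.59), and the lowest line of the other 6, P (7.76), stood 1.61 above LAD2 (6.15), which is 2.88 times the SD within lines. The second Chrm3 probe set had a contrast of -0.73. Chrm1 was highest in ANA (7.60) and AA (7.57) and lowest in HAD1 (5.70), with a contrast of -1.28. In the 4 HAD and LAD lines Chrm1 and Chrm3 (first probe set) averaged 5.62 to 6.15, near the lower quartile of probe set means, 6.08, so that the sizes of these contrasts and steps are limited by the signal above background, which was not tested. Between neighbours of Chrm1, only P to sNP (0.55) and sNP to sP (0.45) exceeded its SD within lines of 0.38. Chrm2 was highest in HAD2 (6.46) and LAD2 (6.43) and lowest in sP (5.25), with a contrast of 0.73. Of its steps, LAD2 to HAD1 (0.53), LAD1 to P (0.17) and NP to AA (0.29) exceeded its SD within lines of 0.14. Chrm4 lay between 8.71 and 8.99 in 9 lines and at 8.09 in sP, and only the step from sNP to sP exceeded its SD within lines of 0.51. Chrm5 lay between 6.54 in NP and 7.33 in LAD2, with 1 step over the SD within lines of 0.20, that of 0.30 from AA to P.

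**Figure D4:**
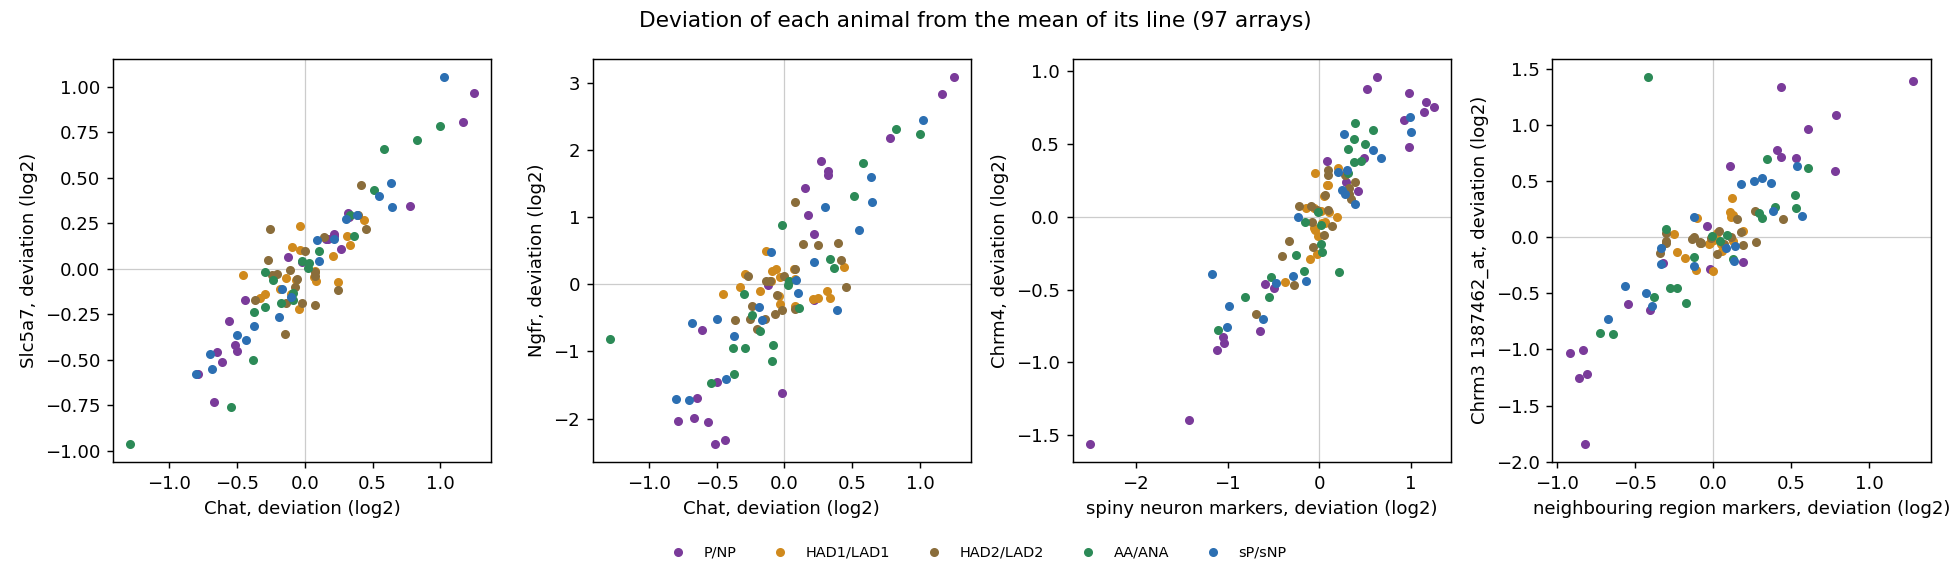
Deviation of each animal from the mean of its line (log2, both axes) for Chat with Slc5a7, Chat with Ngfr, the spiny neuron marker mean with Chrm4, and the neighbouring region marker mean with Chrm3 (first probe set). Colours give the line pair, and points follow a rising band in each panel, with HAD1, LAD1, HAD2 and LAD2 animals near the centre.

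Between animals of 1 line, Chat, Slc5a7 and Slc18a3 deviated together. Over 97 arrays, with the line mean removed, Chat and Slc5a7 had Pearson r = 0.926 and Spearman rho = 0.881, Chat and Slc18a3 had r = 0.861 and rho = 0.777, and Slc5a7 and Slc18a3 had r = 0.817 and rho = 0.651. Each Pearson r had a two-sided permutation p of 1e-05 within lines, the smallest that 100000 permutations can give, and the same after adjustment over 9 relations. Each rho had an adjusted permutation p of 1.12e-05. Next, the 2 arrays were left out whose signal of the first gene lay farthest from its median over all arrays. Then r was 0.916, 0.846 and 0.783 in that order. These arrays were chosen by signal and not by deviation, so whether the largest deviations carry r was not tested. Without departing arrays r was 0.935, 0.88 and 0.815.

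The relation was not the same in all pairs. Chat and Slc5a7 had r of 0.972 in P/NP, 0.961 in AA/ANA and 0.979 in sP/sNP, against 0.582 in HAD1/LAD1 and 0.546 in HAD2/LAD2. Slc5a7 and Slc18a3 had r of 0.975, 0.943 and 0.922 in the first 3 of these pairs, and -0.11 in HAD1/LAD1 and -0.109 in HAD2/LAD2 (permutation p 0.683 and 0.642). Chat and Slc18a3 had r of 0.39 in HAD1/LAD1 (permutation p 0.108) and 0.456 in HAD2/LAD2. The SD of Chat was 0.23 to 0.26 in the HAD and LAD lines and 0.38 to 0.65 in the others. The difference between pairs in r was not tested.

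The same 3 genes followed the markers of the tissue piece. Chat deviated with the neighbouring region mean (r = 0.738, rho = 0.682) and against the spiny neuron mean (r = -0.664, rho = -0.598). For Slc5a7 these r were 0.735 and -0.613, and for Slc18a3 0.629 and -0.554. Each of these Pearson r had an adjusted permutation p of 1e-05. In HAD1/LAD1 the signs were turned for Chat (-0.437 with the neighbouring region, 0.218 with the spiny neuron mean) and for Slc18a3 (-0.592 and 0.551). Ngfr had r of 0.833 with Chat, 0.813 with Slc5a7 and 0.795 with Slc18a3, and for Chat r was 0.916 in P/NP and -0.13 in HAD1/LAD1. Ngfr itself ran from 5.38 to 10.59 in P rats and from 4.96 to 10.36 in NP rats. With Ngfr removed by regression, r was 0.773 for Chat and Slc5a7, 0.593 for Chat and Slc18a3, and 0.484 for Slc5a7 and Slc18a3.

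**Figure D5:**
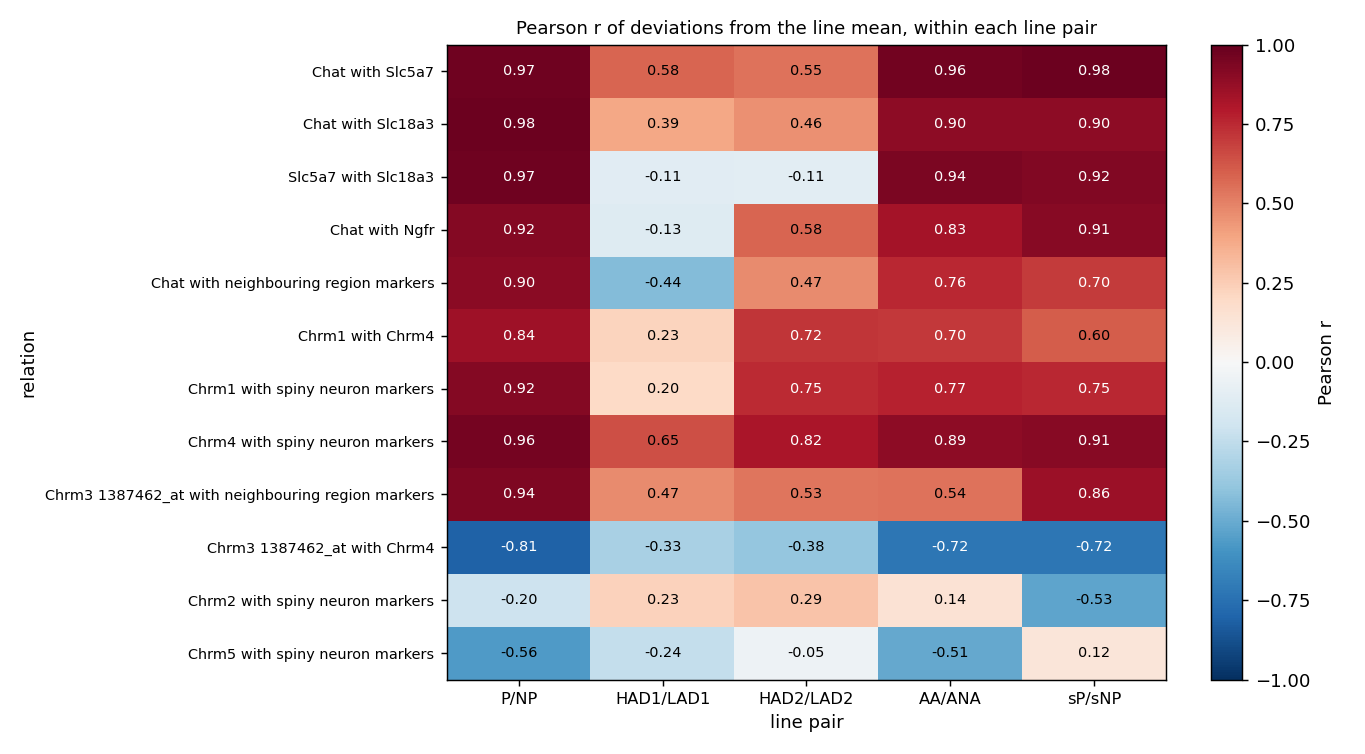
Pearson r of deviations from the line mean within each line pair (columns) for 12 relations (rows), with r printed in each cell and red for positive, blue for negative. Chat with Slc5a7 is positive in every pair, Slc5a7 with Slc18a3 is near 0 in HAD1/LAD1 and HAD2/LAD2, and Chrm4 with the spiny neuron markers is at least 0.648 in every pair.

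Receptors deviated with different markers, in a family of 54 relations added after the data were seen. Chrm4 followed the spiny neuron mean (r = 0.919, rho = 0.914), with r from 0.648 in HAD1/LAD1 to 0.958 in P/NP. Chrm1 did so too (r = 0.823, rho = 0.771), with r of 0.203 in HAD1/LAD1 and 0.749 to 0.919 in the other pairs. Chrm1 and Chrm4 had r = 0.75, and -0.01 once the marker difference was removed by regression. Chrm3 (first probe set) followed the neighbouring region mean (r = 0.809, rho = 0.776) and went against Chrm4 (r = -0.743). Its r with the neighbouring region mean ran from 0.469 in HAD1/LAD1 to 0.935 in P/NP. The second Chrm3 probe set had weaker r, 0.488 with the neighbouring region mean and -0.446 with Chrm4, and r = 0.755 with the first. Chrm2 and Chrm5 had weaker relations, with r of -0.203 and -0.33 to the spiny neuron mean. Chat had r of -0.616 with Chrm1 (rho = -0.594) and -0.549 with Chrm4 (rho = -0.531). After adjustment over the 54 relations the permutation p of the Pearson r over the 97 arrays was 2.57e-05 for these relations, apart from the following. It was 0.15 for Chrm2 and 0.00871 for Chrm5 with the spiny neuron mean. For Chrm3 (second probe set) it was 0.000238 with the neighbouring region mean and 0.00062 with Chrm4. The 2 arrays whose receptor signal lay farthest from its median over all arrays were also left out. Then r was 0.909 for Chrm4 and 0.813 for Chrm1 with the spiny neuron mean. With the neighbouring region mean it was 0.811 for Chrm3 (first probe set). For Chrm3 (first probe set) these arrays were LAD1 33 and LAD1 31, with deviations of -0.304 and -0.291. P 1 (-1.839) and AA 17 (1.431) stayed in, so whether the largest deviations carry r was not tested.

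By likeness of deviations over the 97 arrays and 13960 genes, Slc5a7 came first for Chat (r = 0.926), followed by Acly, which makes the acetyl-CoA that acetylcholine needs (0.877), Slc10a4 (0.869), Slc18a3 (0.861) and Ngfr (0.833). Slc5a7 had the same neighbours, with Chat first, Acly (0.876), Slc10a4 (0.869), Slc18a3 (0.817) and Ngfr (0.813). Slc18a3 was nearest to Ecel1 (0.921), then Chat, Slc25a1 (0.852), Acly (0.829) and Slc5a7. For Chrm4 the nearest were Pde1b (0.938), Rgs9 (0.936), Pde10a (0.934), Gucy1a1 (0.927) and Inf2 (0.926), of which Rgs9 and Pde10a are spiny neuron markers. Chrm1 was nearest to Pdyn (0.876), the dynorphin precursor, then Fkbp1a, Lzts1, Ccsap and Camkv (0.865). Chrm3 was nearest to Rassf5 (0.888), Dscam, Plcxd2, Prph and Stmn2 (0.861). The nearest genes of Chrm2, led by Tmem212 (0.636), Dhrs11, Cdc20, Aqp1 and Leng8, and of Chrm5, led by Camk1g (0.602), Adcyap1r1, T2, Tmem43 and Fhl1, were less alike.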

How the data were processed

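Total RNA from 97 rats was hybridised to Affymetrix arrays after 2-cycle amplification, per the labels' protocols. The authors deposited log2 values summarised with RMA, per the submitters' processing notes; the version and a genome build are not given in the sources used here. Values were used as deposited, without 57 control probe sets, and no detection calls were used, so signal over background was not tested. The members and lists were chosen with earlier results of these data known.

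Each pair was fitted with limma 3.58.1 in R 4.3.3 (lmFit, eBayes, two-sided), with Benjamini-Hochberg adjustment over 31042 probe sets and a threshold of 0.05. A fit with 1 mean per line gave the average, the equality of the 5 differences and the equality of the lines, and a further fit took line pairs as replicates. Replicates are separate animals per the labels. All probe sets of the members are named, together with up to 6 called list genes per comparison by adjusted p and the 5 most alike genes; further called list genes in sP/sNP were named after their values were seen. A list gene was represented by its brightest probe set, and lists were summarised by the mean of these. Correlations and exact permutations were run in Python 3.11.15 (numpy 2.4.6, scipy 1.17.1). Fits were tested on simulated data. Departing arrays were those more than 0.3 from their own end of a score (0 at the non-preferring and 1 at the preferring median) over the 50 probe sets with the clearest line difference in the remaining animals. Precision is set by the number of rats per line.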

Additional observations from a re-analysis of the deposited data

Results flagged for a closer look

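Single animals stood apart from the rest of their line in 7 of the 90 combinations of probe set and line examined by Dixon's ratio, and chance gives about 1 in 20. The highest value of Slc5a7 in HAD2 was 10.78, in animal 1. Slc18a3 was lowest in ANA at 6.86, in animal 20, a departing array. Chrm1 was lowest in LAD2 at 5.23, in animal 16. Chrm3 (second probe set) was highest in AA at 6.76, in animal 17, which also had the highest cortical marker mean of its line (8.76), and highest in sNP at 5.65, in animal 2. Chrm5 was lowest in LAD1 at 6.83, in animal 37, a departing array, and highest in sP at 7.71, in animal 6.

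The difference of Slc5a7 between preferring and non-preferring lines itself differed among the 5 pairs (limma F test, adjusted p 0.0161). It was 1 of the 9 probe sets called, beside 11.7% of all probe sets, and it was not called without HAD2/LAD2 (0.166) or without sP/sNP (0.0688). The test takes 1 spread for all lines, although the SD of Slc5a7 ran from 0.099 in LAD1 to 0.53 in sP.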

How the results depend on the processing

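Of 1747 values of single genes under an alternative, 1707 kept their side of the threshold, 23 lost a call, 13 gained one and 4, all correlations, turned direction. Of 1519 differences among them, 118 that passed the test neither time changed sign, in 37 results, and 0 of those called did. Many differences lay far from the threshold in the main fits, so the share that kept its side says little about the called ones. In HAD1/LAD1, limma called 1 of the 9 probe sets with array quality weights and 2 without departing arrays, against 0 otherwise. In HAD2/LAD2 the count was 0 in the fit with all 10 lines, and 0 with the oligodendrocyte mean or with Ngfr as a covariate, both added after the data were seen. In sP/sNP it was 0 in the fit with all 10 lines, 0 with the marker index and 0 with the Gapdh difference as a covariate, and between 0 and 3 when 1 animal was left out. The test of equality of the 5 differences called 0 without HAD2/LAD2 and 0 without sP/sNP. With the dimmer probe sets left out, 3 were measured and called in the test of the 10 line means; fewer were tested there by construction. In the same setting Chrm4 was called in sP/sNP (limma adjusted p 0.0418). Of 45 correlations within a pair, 16 had a permutation p over 0.05 or a turned sign, 8 in HAD1/LAD1, 5 in HAD2/LAD2 and 3 in AA/ANA. Among the cholinergic genes these were Chat with Slc18a3 (0.39 in HAD1/LAD1) and Slc5a7 with Slc18a3 (-0.11 in HAD1/LAD1, -0.109 in HAD2/LAD2). With the spiny neuron and neighbouring region means, Chat (0.218 and -0.437) and Slc18a3 (0.551 and -0.592) turned in HAD1/LAD1, and Slc5a7 was lost there (-0.151 and 0.0268) and in HAD2/LAD2 (-0.307 and 0.393). Slc18a3 was lost with both in HAD2/LAD2 (-0.0166 and 0.0983), and in AA/ANA all 3 genes were lost with the spiny neuron mean (from -0.435 to -0.15). Where no value above shows it, the cause was not tested.

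Animal numbers are shared between lines in P/NP and sP/sNP. Same-numbered animals had correlations of deviations from -0.59 to 0.77 in P/NP, with 6 of 10 over 0.1. In sP/sNP these correlations ran from -0.22 to 0.56, with 5 of 9 over 0.1. Such values cannot decide whether the numbers pair the samples, and the main fits took the animals as unpaired. With the replicate block, 197 of all 31042 probe sets were called in P/NP (326 without) and 5035 in sP/sNP (4006 without). Of the 9 probe sets 5 were then called in sP/sNP (Chat, Slc5a7, Chrm1, Chrm3 by its first probe set and Chrm4) and 0 in P/NP.

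Signal over background was not tested, which limits Chrm2 and Chrm3 (second probe set), whose line means lie between 4.69 and 6.46, and Chrm1 and Chrm3 (first probe set) in the HAD and LAD lines (5.62 to 6.15). Between-pair levels share any unrecorded difference in handling, and a p that misses the threshold does not show that lines are alike.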
